A study of Mus musculus with 556 samples.

Results

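Paternal pronuclei from mouse zygotes that received wild-type Kdm5b mRNA were compared with paternal pronuclei from zygotes that received mutant Kdm5b mRNA. The members were the columns of the single-cell table named for a paternal pronucleus, Dam-lamin B1 and wild-type or mutant Kdm5b, 19 with wild-type and 6 with mutant Kdm5b. These 25 pronuclei were part of 512 cells in the table and of 556 samples in the series, which profiled contact with the nuclear lamina in oocytes and preimplantation embryos by single-cell DamID. Each sample of this comparison was 1 mechanically isolated pronucleus.

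Both groups were injected at 18 h after hCG with 2 µg/µl Kdm5b mRNA, 5 ng/µl mRNA for AID-Dam-LaminB1, 250 ng/µl mRNA for TIR1 and 50 ng/µl mRNA for membrane-EGFP. Auxin, which through TIR1 destroys the degron-tagged fusion protein, was present for 3 h and was withdrawn at 21 h after hCG for 6 to 8 h, so that adenine was methylated in late zygotes only. Zygotes came from superovulated F1 (CBAxC57BL/6J) females of 5 to 8 weeks, and the strain label of all these pronuclei is C57BL/6. A further 15 paternal pronuclei without injected Kdm5b carried the same fusion, and the labels give no separate mRNA dose for them. Maternal pronuclei (19 with wild-type Kdm5b, 13 with mutant Kdm5b) served for a test of the difference between the parental genomes.

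Several limits of this model bear on every value. The Kdm5b was overexpressed from injected mRNA, and the labels do not say what the mutation was. Parental origin rests on the size of the pronucleus and its position beside the second polar body, and the autosomal table gives no value that could check it. No mother, litter or injection day is named, so p-values measure the spread between these pronuclei. The injected mRNA is not seen by an assay of genomic DNA, so the level of either Kdm5b protein was not measured.

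Kdm5b is a histone demethylase that removes methyl groups from lysine 4 of histone H3, a mark found at active promoters and, in zygotes, also over parts of the maternal genome away from promoters. Lamina-associated domains (LADs) are large stretches of the genome that touch the lamina under the nuclear envelope, and they are usually poor in genes, rich in clustered receptor genes and weakly transcribed. After fertilisation the paternal genome exchanges protamines for histones, forms its own pronucleus and acquires its contacts with the lamina anew. In DamID, the bacterial adenine methyltransferase Dam, fused to lamin B1, methylates GATC sites that come near the lamina, and Dam on its own methylates accessible chromatin.

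Values are the ratio of observed to expected reads (OE) in 100 kb bins of the autosomes, where 1 is the expectation. OE averages about 1 in each pronucleus, so a higher value in one set of bins comes with a lower value elsewhere. Estimated depth ran from 41513 to 288265 reads with wild-type Kdm5b (median 104907), and was 42651, 159206, 127092, 80513, 68268 and 204846 reads in mutant pronuclei 1 to 6. Bins without a read made up 1.24% to 26.2% of the bins with wild-type Kdm5b and 2.58% to 31.1% with mutant Kdm5b. The groups overlapped in depth. LAD positions came from the deposited lists for the inner cell mass (ICM) and trophectoderm (TE) of the blastocyst, and 12082 bins lay in both lists (LAD bins), 7688 in neither (non-LAD bins), 1976 in the ICM list alone and 2276 in the TE list alone. These lists describe a later stage and serve here as fixed coordinates.

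With wild-type Kdm5b the paternal genome showed almost no preference for LADs at the lamina, whereas with mutant Kdm5b it showed one. Regions outside LADs read higher and the interiors of LADs read lower with wild-type than with mutant Kdm5b. The LAD contrast, the log2 ratio of mean OE in LAD bins to mean OE in non-LAD bins, was -0.51 in the lowest, -0.0065 in the median and 0.18 in the highest wild-type pronucleus, and 0.92, 0.71, 0.78, 0.29, 0.46 and 0.08 in mutant pronuclei 1 to 6. Mutant pronucleus 6 lay within the range of the wild-type group, and the other 5 lay above all 19 wild-type pronuclei. The mean contrast was -0.09 ± 0.21 with wild-type Kdm5b (SD, n = 19) and 0.54 ± 0.32 with mutant Kdm5b (SD, n = 6). The difference, -0.63, was larger than the spread within groups (exact permutation test over all splits, two-sided p = 3.39e-05, adjusted over 4 tests 6.78e-05), and 19 of 19 wild-type pronuclei lay below the mutant mean.

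**Figure D1:**
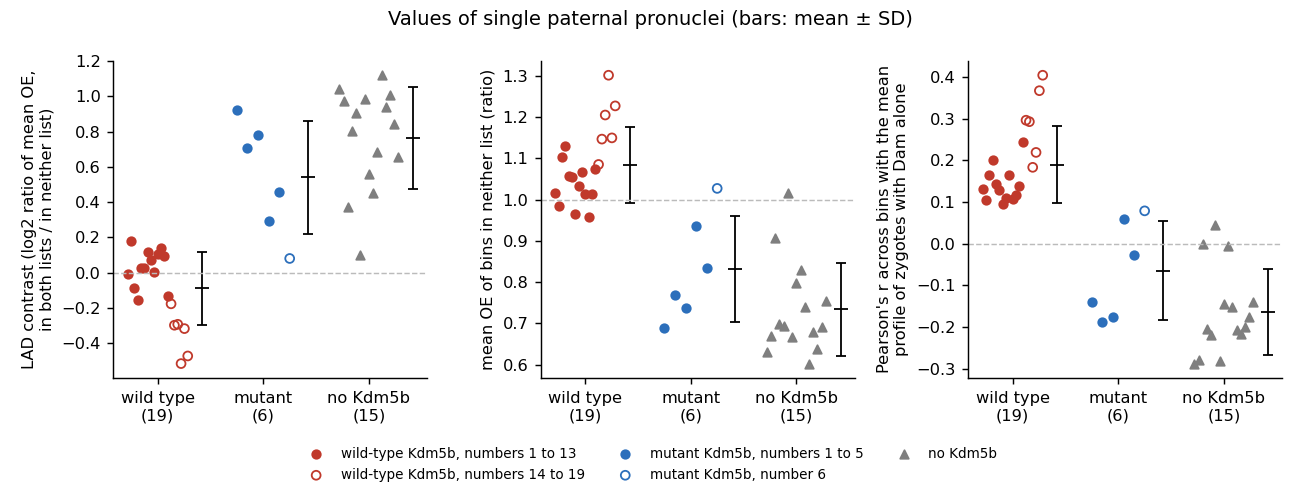
Single paternal pronuclei with wild-type, mutant and no injected Kdm5b (points; bars give mean and SD), with the LAD contrast (log2 ratio), the mean OE of non-LAD bins and the correlation (Pearson, over bins) with the Dam-only zygotes' mean profile on the y axes of the 3 panels. Open symbols are wild-type numbers 14 to 19 and mutant number 6. Wild-type contrasts lie between -0.51 and 0.18, and of the mutant pronuclei only number 6, at 0.08, lies in that range.

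The wild-type pronuclei fell into 2 runs of adjacent columns in the deposited table, numbers 1 to 13 and 14 to 19, and mutant pronucleus 6 also stood apart from mutant numbers 1 to 5. The labels name no batch. The contrast was 0.03 ± 0.10 in wild-type numbers 1 to 13 (SD, n = 13, -0.15 to 0.18) and 0.63 ± 0.25 in mutant numbers 1 to 5 (SD, n = 5), a difference of -0.60 (exact permutation test, p = 0.000117). It was -0.34 ± 0.13 in wild-type numbers 14 to 19 (SD, n = 6, -0.51 to -0.18), all below the single mutant pronucleus of the later columns at 0.08. With 1 mutant pronucleus the later columns allow no comparison, and that value also lay within the range of wild-type numbers 1 to 13. Mutant pronucleus 6 correlated across bins with wild-type numbers 1 to 13 at a mean r of 0.0732 and with numbers 14 to 19 at 0.0627. For mutants 1, 2, 3 and 5 the mean r with numbers 14 to 19 was below 0, and for mutant 4 it was 0.0858. The highest r of mutant 4, 0.255 with wild-type number 15, fell to 0.0263 with 2 bins left out. Whether the runs are batches was not tested.

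Mutant pronuclei lay closer to paternal pronuclei without Kdm5b than wild-type pronuclei did. The contrast without Kdm5b was 0.76 ± 0.29 (SD, n = 15, 0.10 to 1.12). The mutant group differed from it by -0.22, which did not pass the threshold (exact permutation test over 54264 splits, p = 0.138, adjusted p = 0.154). The wild-type group differed from it by -0.85 (permutation test, p = 1e-05, the smallest that 100000 resamples can give, adjusted p = 4e-05). A p that misses the threshold does not show that mutant Kdm5b was without effect. Wild-type and mutant pronuclei are here compared with the same group, which carried the fusion but received no Kdm5b mRNA.

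In maternal pronuclei the contrast was 0.28 ± 0.30 with wild-type Kdm5b (SD, n = 19) and 0.65 ± 0.29 with mutant Kdm5b (SD, n = 13). The paternal effect exceeded the maternal effect by -0.25, a difference that did not pass the threshold (permutation test, p = 0.154, adjusted p = 0.154). Paternal and maternal pronuclei were treated as independent, and a pairing by zygote was not tested. Over 1 Mb windows, 0 of 2403 (0.0%) passed a limma test of the difference between these effects at an adjusted p under 0.05, with 196 at an unadjusted p under 0.05. Maternal profiles were sparser. Bins without a read averaged 24.8% with wild-type and 34.7% with mutant Kdm5b in maternal pronuclei, against 9.81% and 12.7% in paternal ones. What this sparsity did to the comparison was not tested.

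The lower contrast was made up of more signal outside LADs and less inside. Mean OE in non-LAD bins was 1.08 ± 0.0916 with wild-type Kdm5b (0.959 to 1.30) and 0.833 ± 0.128 with mutant Kdm5b (0.689 to 1.03), against 0.734 ± 0.112 without Kdm5b. Mean OE in LAD bins was 1.02 ± 0.0693 with wild-type Kdm5b and 1.20 ± 0.0865 with mutant Kdm5b, against 1.24 without Kdm5b. The runs differed in which side was higher. Wild-type numbers 1 to 13 had 1.04 in non-LAD and 1.06 in LAD bins, with 9 of 13 contrasts above 0, and numbers 14 to 19 had 1.19 in non-LAD and 0.932 in LAD bins. Bins that only one blastocyst lineage lists as LAD differed by less. Mean OE was 1.03 with wild-type and 0.992 with mutant Kdm5b in the ICM-only class, and 0.990 with wild-type and 1.10 with mutant Kdm5b in the TE-only class.

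The same shift was visible in the share of bins at or above the expectation. An OE of 1 or more was seen in 49.8% ± 6.01 of non-LAD bins with wild-type Kdm5b and in 34.6% ± 8.01 with mutant Kdm5b (exact permutation test, adjusted over 9 measures p = 0.000165). In LAD bins the shares were 44.9% ± 4.22 with wild-type and 51.4% ± 1.76 with mutant Kdm5b (adjusted p = 0.00184, exact permutation). Outside LADs 19 of 19 wild-type pronuclei lay above the mutant mean, and inside LADs 19 of 19 lay below it.

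The profiles of wild-type pronuclei were less organised in large blocks. The correlation of OE between neighbouring bins was 0.143 ± 0.0670 with wild-type Kdm5b and 0.293 ± 0.138 with mutant Kdm5b (adjusted p = 0.00266, exact permutation), and over a distance of 10 bins it was 0.0544 with wild-type and 0.140 with mutant Kdm5b (adjusted p = 0.00184, exact permutation). The mean pairwise r across bins was 0.0747 among all wild-type pronuclei and 0.118 among mutants (permutation, adjusted p = 0.00355). It was 0.0741 among wild-type numbers 1 to 13, 0.120 among numbers 14 to 19 and 0.0666 between these runs, so the lower value did not hold within numbers 14 to 19. Bins of one pronucleus are not independent, and r between single pronuclei depends on depth, which overlapped between the groups.

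Wild-type profiles correlated more with that of Dam alone than mutant profiles did, and less with that of pronuclei without Kdm5b. The correlation across bins with the mean of 46 zygotes that expressed Dam alone, a readout of accessible chromatin, was 0.190 ± 0.0917 with wild-type Kdm5b (0.0943 to 0.404) and -0.0655 ± 0.119 with mutant Kdm5b (-0.188 to 0.0786). The groups did not overlap in this measure (adjusted p = 5.08e-05, exact permutation). The correlation with the mean of paternal pronuclei without Kdm5b was 0.0425 ± 0.0943 with wild-type Kdm5b and 0.289 ± 0.121 with mutant Kdm5b (adjusted p = 0.000165, exact permutation). Within the wild-type group, r with Dam alone was 0.142 in numbers 1 to 13 and 0.293 in numbers 14 to 19. Their r with pronuclei without Kdm5b was 0.0963 in numbers 1 to 13 (above 0 in 12 of 13) and -0.0741 in numbers 14 to 19 (above 0 in 0 of 6). Wild-type numbers 2, 5, 7 and 8 correlated more with pronuclei without Kdm5b than with Dam alone. Between group means, the wild-type profile correlated with the Dam profile at r = 0.529 and with the profile without Kdm5b at r = 0.111. The mutant profile did so at r = -0.143 and r = 0.564, all across bins and given as descriptions.

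Across LAD borders, wild-type pronuclei showed an almost flat mean profile. It was slightly higher outside LADs, and this profile was not split by run. Over all bins of each class, numbers 1 to 13 averaged 1.04 in non-LAD and 1.06 in LAD bins, with 9 of 13 contrasts above 0. Numbers 14 to 19 averaged 1.19 in non-LAD and 0.932 in LAD bins. In the gap bin next to the border mean OE was 1.07 with wild-type, 0.888 with mutant and 0.793 without Kdm5b, and in the LAD bin next to the border it was 1.02 with wild-type, 1.09 with mutant and 1.05 without Kdm5b. At 0.95 Mb from the border the values outside were 1.09 with wild-type and 0.820 with mutant Kdm5b, and inside they were 1.02 with wild-type and 1.21 with mutant Kdm5b. At 1.95 Mb the gap was wider still, with 1.13 for wild-type and 0.791 for mutant Kdm5b outside, and 1.01 for wild-type and 1.24 for mutant Kdm5b inside. In mutants, LAD bins from 1 Mb inward were higher than LAD bins in the outer 0.3 Mb by 0.17 on the log2 scale. With wild-type Kdm5b that difference was -0.02 (adjusted p = 0.000165, exact permutation). Short LADs hold edge bins but no such interior bins, with 914 LAD bins at 0.05 Mb and 176 at 1.95 Mb. This measure and the profile therefore mix distance from the border with LAD length.

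**Figure D2:**
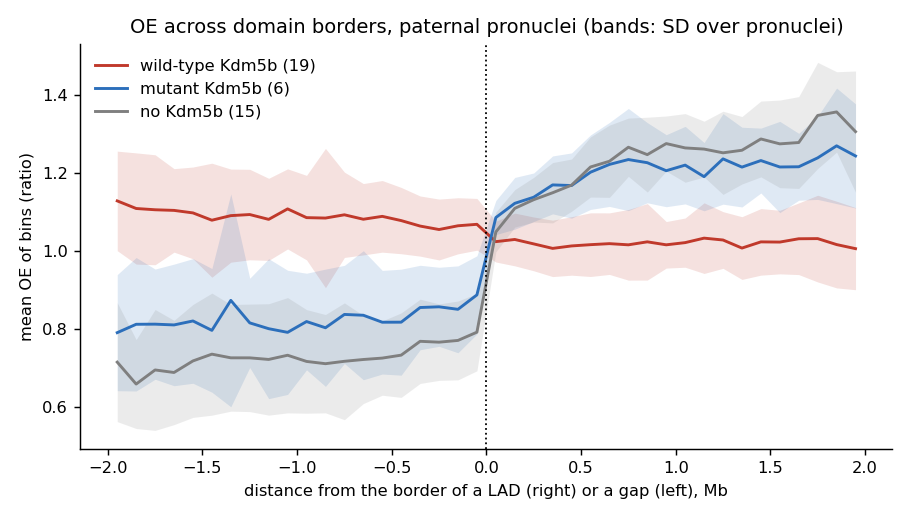
Mean OE (y axis, ratio) by distance from the border in Mb (x axis, gaps at negative and LADs at positive distances) for paternal pronuclei with wild-type, mutant and no Kdm5b, as lines with bands of 1 SD over pronuclei. The lines for mutant and no Kdm5b step up from the gap into the LAD. The wild-type line lies at 1.07 in the last bin of the gap and at 1.02 in the first bin of the LAD.

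Longer LADs and longer gaps differed most. In LADs of 5 Mb or more mean OE was 1.02 with wild-type and 1.27 with mutant Kdm5b, and the 2 groups of pronuclei did not overlap, whereas in LADs of 0.5 to 2 Mb it was 1.01 with wild-type and 1.14 with mutant Kdm5b. In gaps of 5 Mb or more it was 1.10 with wild-type and 0.822 with mutant Kdm5b. In gaps of 0.5 to 2 Mb it was 1.05 with wild-type and 0.851 with mutant Kdm5b. These strata are given as descriptions of the same contrast, with no further test.

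The difference varied with the gene content of a bin. Outside LADs, bins with the midpoint of a protein-coding gene exceeded gene-free bins by 0.05 on the log2 scale with wild-type Kdm5b and stood at -0.05 relative to them with mutant Kdm5b (adjusted p = 0.00087, exact permutation). Inside LADs the same comparison gave 0.03 with wild-type and -0.18 with mutant Kdm5b (adjusted p = 0.000113, exact permutation). Both comparisons were added after the data had been seen. In LAD bins without a gene mean OE was 1.01 with wild-type and 1.24 with mutant Kdm5b, and with 2 or 3 genes it was 1.00 with wild-type and 1.03 with mutant Kdm5b. LAD bins with 4 or more genes differed in the same direction and again by more, at 0.976 with wild-type and 1.23 with mutant Kdm5b. Outside LADs, bins with 4 or more genes had 1.12 with wild-type and 0.826 with mutant Kdm5b.

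Every autosome took part. The contrast was lower with wild-type than with mutant Kdm5b on 19 of 19 autosomes at an adjusted p under 0.05 (100.0% called, exact permutation tests), from -0.42 on chromosome 16 (adjusted p = 0.00467) to -0.81 on chromosome 15. The first 5 Mb of each chromosome, next to the centromere in the mouse, read lower than the rest by 0.09 on the log2 scale with wild-type Kdm5b (-0.09 ± 0.09) and by 0.33 with mutant Kdm5b (-0.33 ± 0.14; adjusted p = 0.000305, exact permutation). In that stretch LAD bins did not separate the groups, at 0.897 with wild-type and 0.895 with mutant Kdm5b, while non-LAD bins had 1.15 with wild-type and 0.851 with mutant Kdm5b.

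Among single domains, gaps were called mostly higher and LADs mostly lower with wild-type Kdm5b. LADs and gaps of at least 500 kb were tested with limma on log2(OE + 0.5), and 351 of 803 domains (43.7%) passed at an adjusted p under 0.05, 224 higher (27.9%) and 127 lower (15.8%) with wild-type Kdm5b. Of 346 gaps between LADs, 193 were higher, 8 were lower and 145 did not pass, with a median log2 difference of 0.27. Of 457 shared LADs, 119 were lower, 31 were higher and 307 did not pass, with a median of -0.10. Length went with the calls, since 30 of 33 gaps of 5 Mb or more were higher against 95 of 213 gaps of 0.5 to 2 Mb, and 27 of 60 LADs of 5 Mb or more were lower against 52 of 250 LADs of 0.5 to 2 Mb. Longer domains average over more bins and have less error, so a share of calls does not by itself rank the size of the difference.

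Other settings moved these counts. Centring each pronucleus on its own median domain shifted the median log2 difference over domains from 0.11 to -0.02. With this centring 52 gaps were higher, 16 gaps lower, 3 LADs higher and 156 LADs lower, 55 higher and 172 lower in all. With wild-type numbers 1 to 13 alone, 136 domains passed, and with numbers 14 to 19 alone 357 passed. The median gap stayed above and the median LAD below 0 in each of these settings.

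**Figure D3:**
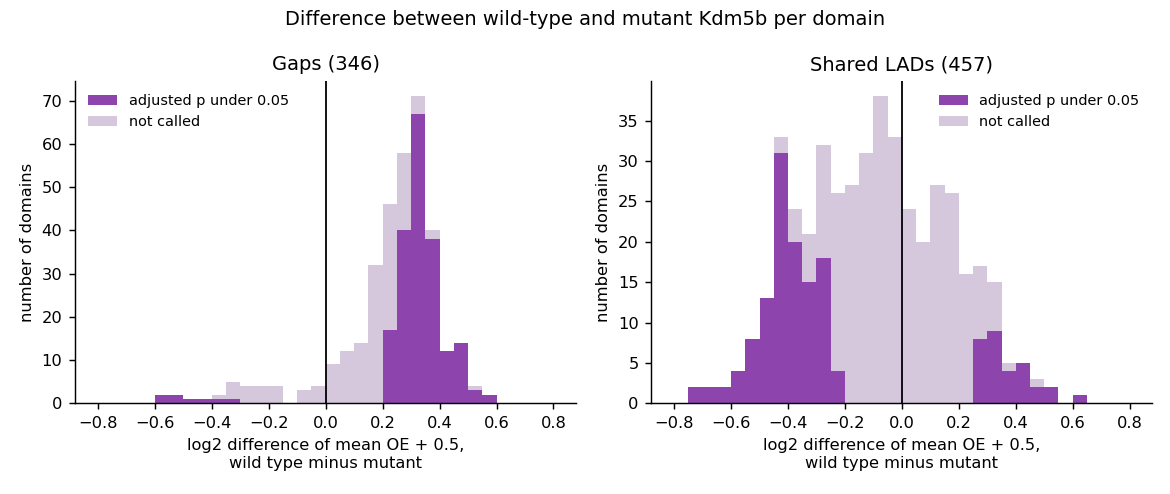
Histograms of the log2 difference of mean OE + 0.5 (wild-type minus mutant Kdm5b, x axis) over 346 gaps and 457 shared LADs of at least 500 kb (y axis, number of domains), with domains at an adjusted p under 0.05 in the darker colour. The median is 0.27 for gaps and -0.10 for LADs, and most dark bars lie above 0 for gaps and below 0 for LADs.

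Among gaps the largest gain was in the one that held Ciita, the master activator of MHC class II genes, together with Dexi and Clec16a (chr16:10500001-12000000, 19 protein-coding genes). Its mean OE was 0.800 in the lowest, 1.10 in the median and 1.70 in the highest wild-type pronucleus, and 0.365, 0.717, 0.817, 1.13, 0.577 and 0.192 in mutant pronuclei 1 to 6. Only mutant number 4 reached the wild-type median, and the log2 difference was 0.59 (SE 0.12, limma, adjusted p = 0.00147).

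The next gaps were smaller or as gene-rich. The gap of Abat, which breaks down the transmitter GABA, with Tmem114 and Mettl22 (chr16:8400001-8900000), had a log2 difference of 0.55 (adjusted p = 0.00447). Sash1, a signalling scaffold, was the single protein-coding gene with its midpoint in a gap on chromosome 10 (chr10:8500001-9300000). That gap had 0.54 (adjusted p = 0.00182). The gap of Rps6kc1, Angel2 and Vash2, the last of which encodes a tubulin carboxypeptidase, had 0.52 (chr1:190800001-192100000, adjusted p = 0.00138).

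Among LADs with a protein-coding gene the largest loss was in the domain of Ptbp2, a splicing regulator of developing neurons and male germ cells, which is the single protein-coding gene there (chr3:119500001-121100000). Wild-type pronuclei had an OE of 0.326 in the lowest, 0.949 in the median and 1.44 in the highest, and mutants had 2.05, 1.83, 2.04, 1.55, 1.86 and 1.32. Mutant number 6 alone fell within the wild-type range, and the log2 difference was -0.70 (SE 0.13, adjusted p = 0.00099).

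A LAD of clustered olfactory receptor genes with Olfr160, Olfr874 and Olfr875 followed at -0.63 (chr9:37700001-39200000, adjusted p = 0.00832). The LAD of Zfp330, the phosphoinositide phosphatase gene Inpp4b and the cytokine gene Il15 stood at -0.55 (chr8:81000001-83000000, adjusted p = 0.00447). The LAD of the endothelial receptor gene Adgrl4 and the interferon-induced genes Ifi44 and Ifi44l stood at -0.54 (chr3:150600001-151900000, adjusted p = 0.00586).

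Domains that went against their class, chosen after their values were seen, also differed in gene content. The 193 higher gaps had a median of 13.3 protein-coding genes per Mb and all gaps 12.3, whereas 5 of the 8 lower gaps held no protein-coding gene and the others were those of Sgcz, a muscle sarcoglycan (-0.50), Cntnap5b, a neuronal cell adhesion protein (-0.41), and the protocadherin gene Pcdh9 (-0.34, adjusted p = 0.0151). The 31 higher LADs had a median of 3.13 genes per Mb, the 119 lower LADs 1.74 and all LADs 2.86. Higher LADs included that of the chemokine gene Cxcl12 with Tmem72 (0.50), that of Eomes, a transcription factor of the trophectoderm lineage, with Tgfbr2 (0.33), that of the endoderm factor Sox17 (0.36) and LADs of the olfactory receptor genes Olfr1357 (0.36), Olfr525 (0.34) and Olfr1370 (0.36). With centring on the median domain, 3 LADs in all were higher, so most of these calls were not kept under that scaling.

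In windows of 1 Mb that tile the autosomes, 768 of 2403 (32%) passed, 404 higher (16.8%) and 364 lower (15.1%) with wild-type Kdm5b. The median number of protein-coding genes was 11 in higher, 1 in lower and 5 in all windows, and 243 of the 364 lower windows held at most 1. Gene-dense windows occurred on both sides, since 31 higher and 11 lower windows held at least 30 such genes, those of olfactory receptor clusters among the lower ones. Centring each pronucleus on its median window gave 124 higher and 453 lower. Against all 6 mutants, the count fell to 198 with wild-type numbers 1 to 13 and was 802 with numbers 14 to 19, the smaller group. It was 0 when the spread was estimated jointly with the maternal groups (500 at an unadjusted p under 0.05), which held more bins without a read. Single windows are thus less firm than the genome-wide contrast. In bins of 100 kb, 0 of 23955 (0.0%) passed in limma, with 3476 at an unadjusted p under 0.05, and Fisher's exact test on the number of pronuclei with an OE of at least 1 also called 0, with 1033 unadjusted.

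Among windows with a protein-coding gene the largest gain was in that of Tle6, part of the maternal complex beneath the oocyte cortex that early cleavage needs, with the zinc finger genes Zfp433 and Zfp781 (chr10:81000001-82000000, 50 protein-coding genes). Wild-type pronuclei had an OE of 0.520 in the lowest, 0.855 in the median and 1.29 in the highest, and mutants had 0.222, 0.199, 0.462, 0.254, 0.290 and 0.738. All mutants lay below the expectation of 1, with mutant number 6 alone inside the wild-type range. The log2 difference was 0.71 (SE 0.14, adjusted p = 0.00234), and 19 of 19 wild-type pronuclei lay above the mutant mean.

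Genes of lipid metabolism lay in another leading window. The window of Pemt, an enzyme of phosphatidylcholine synthesis, Rai1 and Srebf1, a transcription factor of lipid synthesis (chr11:60000001-61000000), had an OE of 0.761 in the lowest, 1.28 in the median and 2.08 in the highest wild-type pronucleus, and 0.656, 0.951, 0.416, 0.548, 0.445 and 0.955 in the mutants. All mutants lay below the expectation there, and the log2 difference was 0.61 (adjusted p = 0.0038).

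A further 5 leading gains were close in size. They were the windows of Zfp236, Zfp516 and Galr1 (chr18:82000001-83000000), of Zfp24, Ino80c and Galnt1 (chr18:24000001-25000000), of Rpl39l, Atf7ip2 and Emp2 (chr16:10000001-11000000) and of Snn, Txndc11 and Zc3h7a (chr16:11000001-12000000), each with a log2 difference of 0.61, and of Larp4b, Dip2c and Zmynd11 (chr13:9000001-10000000) with 0.58. Of these genes, Ino80c encodes a subunit of the INO80 chromatin remodeller and Zmynd11 a reader of methylated histone H3.3.

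Among the losses, the window of Cox7c, a subunit of cytochrome c oxidase and the single protein-coding gene there (chr13:86000001-87000000), separated the groups in full. Wild-type pronuclei had an OE of 0.472 in the lowest, 0.828 in the median and 1.35 in the highest, and mutants had 1.95, 1.85, 1.50, 1.41, 1.44 and 1.66, close to the mean of 1.65 without Kdm5b. The log2 difference was -0.66 (SE 0.12, adjusted p = 0.002).

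Olfactory receptor clusters were among the largest losses. In the window of Olfr582, Olfr583 and Olfr584 (chr7:103000001-104000000) wild-type pronuclei had 0.415 in the lowest, 0.753 in the median and 1.43 in the highest, and mutants had 1.52, 1.87, 2.47, 0.954, 1.72 and 1.44. Mutant number 4 alone lay within the wild-type range, and the log2 difference was -0.70 (adjusted p = 0.00317). The window of Olfr146, Olfr936 and Olfr937 stood at -0.69 (chr9:39000001-40000000).

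The remaining leading losses covered genes of several tissues. The window of Rasef stood at -0.72 (chr4:73000001-74000000, adjusted p = 0.00563), and 1 wild-type pronucleus had an OE of 0 there. The window of Cxxc4, a Wnt pathway inhibitor, and Tacr3, a neurokinin receptor, stood at -0.68 (chr3:134000001-135000000). That of the proteoglycan genes Dcn, Lum and Kera stood at -0.67 (chr10:97000001-98000000, adjusted p = 0.00317), that of Spata16, a protein of the sperm acrosome, at -0.66 (chr3:26000001-27000000), and that of the defensin genes Defb18 and Defb41 with Crisp4 at -0.65 (chr1:18000001-19000000).

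**Figure D4:**
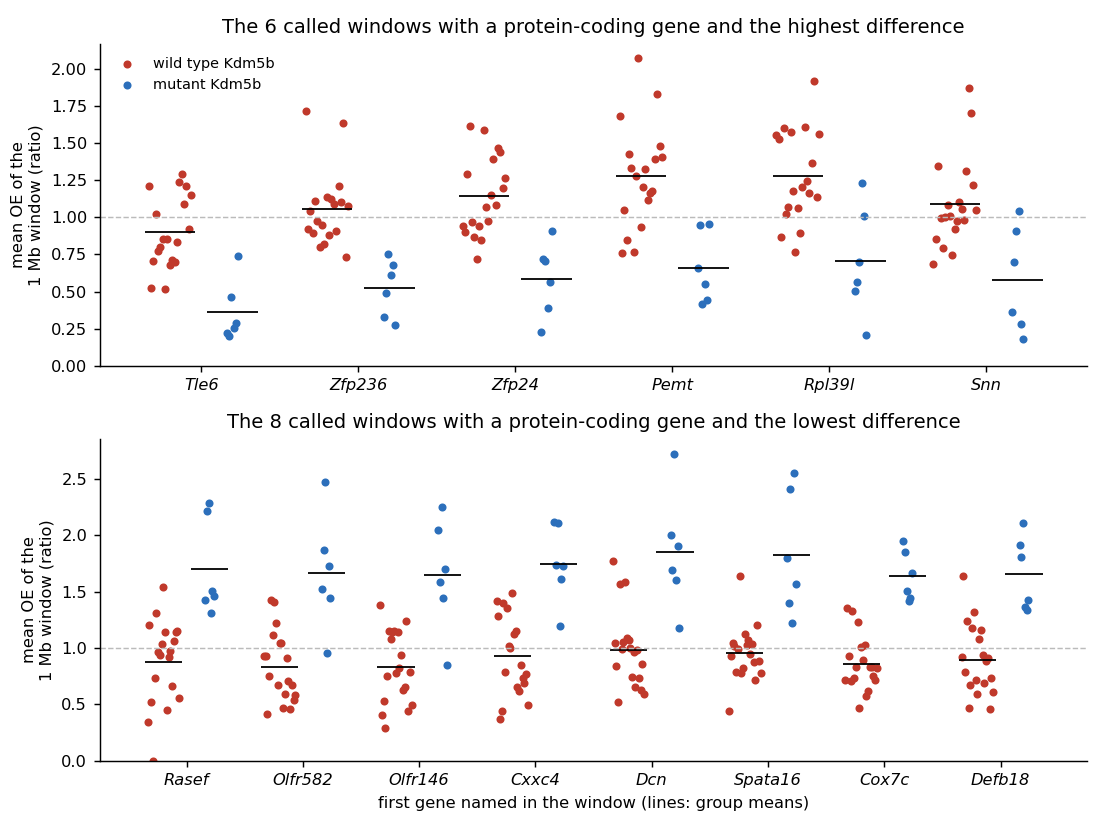
Mean OE (y axis, ratio) of called 1 Mb windows with a protein-coding gene, the 6 with the highest and the 8 with the lowest log2 difference, each named by its first gene, in single paternal pronuclei with wild-type and mutant Kdm5b (points; short lines give group means, the dashed line the expectation of 1). The Tle6 window reads 0.520 to 1.29 in wild-type and 0.199 to 0.738 in mutant pronuclei, and the Cox7c window 0.472 to 1.35 in wild-type and 1.41 to 1.95 in mutant pronuclei.

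Dam methylates the adenine in GATC, so the promoters of the genes that lead these regions are shown with that motif in capitals, to let the substrate of the assay be seen. Each stretch runs from 250 bases before to 50 bases after the annotated start, from RefSeq on GRCm38.p6, which carries the coordinates of the files' build mm10.
Tle6, chr10:81600851-81601150, minus strand: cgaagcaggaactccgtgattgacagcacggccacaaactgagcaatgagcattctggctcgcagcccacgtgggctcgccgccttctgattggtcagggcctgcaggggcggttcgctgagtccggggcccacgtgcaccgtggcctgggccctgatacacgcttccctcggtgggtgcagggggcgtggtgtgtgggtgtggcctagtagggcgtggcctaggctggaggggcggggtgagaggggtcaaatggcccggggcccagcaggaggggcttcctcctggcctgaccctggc
Ptbp2, chr3:119783339-119783638, minus strand: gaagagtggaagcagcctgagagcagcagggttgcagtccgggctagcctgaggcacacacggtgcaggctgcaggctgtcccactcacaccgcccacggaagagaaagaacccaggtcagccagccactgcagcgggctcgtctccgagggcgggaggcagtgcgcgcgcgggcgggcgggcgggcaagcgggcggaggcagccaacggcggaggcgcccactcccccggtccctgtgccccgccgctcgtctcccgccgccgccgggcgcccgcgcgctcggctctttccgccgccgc
Cox7c, chr13:86046746-86047045, minus strand: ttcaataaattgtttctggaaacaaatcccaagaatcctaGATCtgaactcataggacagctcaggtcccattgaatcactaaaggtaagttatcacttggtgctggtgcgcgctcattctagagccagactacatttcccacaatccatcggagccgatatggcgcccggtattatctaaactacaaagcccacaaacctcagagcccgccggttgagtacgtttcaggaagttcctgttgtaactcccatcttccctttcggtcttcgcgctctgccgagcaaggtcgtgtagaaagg
The Cox7c promoter holds 1 GATC, and those shown for Tle6 and Ptbp2 hold none. Tle6 has 2 annotated promoters, of which 1 is shown. GATC, which is the same on both strands, occurs in 15758 of 32851 RefSeq promoters of this length (48.0%). A match is a description of these letters, and the OE of a window sums over many GATC sites outside promoters.

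Only 4 windows (0.166%) and 4 domains (0.498%) had no overlap between the 19 wild-type and the 6 mutant pronuclei, and they were picked out after their values were seen. Beside the Cox7c window these windows included a gene-free window on chromosome 11 (chr11:39000001-40000000), with 0.496 to 1.11 in wild-type pronuclei and 1.39, 1.82, 2.09, 1.30, 1.93 and 1.34 in mutants (log2 difference -0.72, adjusted p = 0.000254) and that of Ndufaf6, Trp53inp1 and Ccne2 (0.47, chr4:11000001-12000000). The domains were all gaps and all higher with wild-type Kdm5b. They held Trp53inp1, Ccne2, a cyclin, and Ints8 (0.48), Unc79 and Prima1 (0.48), the DNA repair nuclease gene Ercc4 with Mrtfb and Parn (0.48), and Tcf20, Nfam1 and Serhl (0.44, chr15:82800001-86500000), where the mutants lay within 0.661 to 0.723.

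Gene groups differed in the direction of their windows. Ribosomal protein genes, which are active in every cell and lie mostly outside LADs, had higher OE with wild-type than with mutant Kdm5b, and long neuronal genes and olfactory receptors, which lie mostly in LADs, had lower OE. Counts below are of 1 Mb windows that hold a member, beside 404 higher (16.8%) and 364 lower (15.1%) among all 2403 windows, whose median log2 difference was 0.08. Windows can hold several genes of different lists, and a list count describes the windows and not the genes alone. The counts changed with the scaling, with the depth and with the wild-type pronuclei used, and the cause of these changes was not tested. Among all 2403 windows, centring on the median window gave 124 higher and 453 lower, and equal reads gave 196 higher and 226 lower. Wild-type numbers 1 to 13 alone gave 81 higher and 117 lower, and numbers 14 to 19 alone gave 376 higher and 426 lower. List counts in these settings are to be read beside these.

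Of 71 windows with a ribosomal protein gene, 29 were higher and 1 was lower, with a median log2 difference of 0.30. Over the member bins mean OE was 1.09 with wild-type and 0.779 with mutant Kdm5b. Of 14 housekeeping windows 4 were higher and 10 did not pass, with a median of 0.25. Of 171 windows with Zfp zinc finger genes, many of which encode repressors of transposons, 44 were higher and 3 were lower, with a median of 0.22, and member bins had 1.08 ± 0.0657 with wild-type and 0.906 ± 0.0959 with mutant Kdm5b. With centring on the median window, 13 Zfp windows were higher and 6 lower, and 8 ribosomal protein windows higher and 1 lower. With wild-type numbers 1 to 13 the counts were 11 higher and 2 lower for Zfp windows and 6 higher for ribosomal protein windows.

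Enzymes that write or erase histone H3 lysine 4 methylation, the mark on which Kdm5b acts, lay outside LADs in all 16 of their bins. Of their 16 windows, 8 were higher and 8 did not pass, with a median of 0.30, and mean OE was 0.969 with wild-type and 0.830 with mutant Kdm5b. The higher windows numbered 3 with centring, 4 at equal reads and 1 with wild-type numbers 1 to 13. Setd1a, a methyltransferase of this mark, and Prr14, which tethers heterochromatin to the lamina, share the leading window of their lists at 0.45 (chr7:127000001-128000000, adjusted p = 0.00973). The window of Kdm5b itself had 0.457 in the lowest, 1.02 in the median and 1.63 in the highest wild-type pronucleus and 0.547, 0.521, 0.664, 0.806, 1.23 and 0.700 in the mutants, a log2 difference of 0.26 that did not pass (adjusted p = 0.124).

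Genes of early development gave mixed counts. Of 16 windows of oocyte maternal-effect genes 5 were higher and 11 did not pass (median 0.23), but 2 were higher and 2 lower with centring and 1 was higher with wild-type numbers 1 to 13. Of 10 trophectoderm windows 3 were higher and 7 did not pass, with the trophoblast factor Tfap2c in front at 0.33 (adjusted p = 0.0464), and of 8 primitive endoderm windows 4 were higher and 4 did not pass, led by the liver and endoderm factor Hnf4a at 0.55 (adjusted p = 0.00489). Of 12 pluripotency windows 1 was higher, that of Nanog, and 1 lower, that of Zfp42 at -0.46. Of 9 windows of genes expressed at the 2-cell stage 1 was higher and 1 lower, the lower one being that of Zfp352 at -0.57, and the list's median of 0.08 turned to -0.02 with centring. Of 15 windows of lamina proteins and tethers 4 were higher and 11 did not pass, with a median of 0.22. The trophectoderm list had 0 higher windows with centring, at equal reads or with wild-type numbers 1 to 13 (5 at an unadjusted p under 0.05 in the limma fit of all pronuclei). The primitive endoderm list had 2 in each of these settings, and the list of lamina proteins and tethers had 1 with centring, 3 at equal reads and 1 with wild-type numbers 1 to 13.

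Windows of imprinted genes were higher or did not pass. Of 19 windows 6 were higher and 13 did not pass, with a median of 0.31, and mean OE over their bins was 1.17 with wild-type and 0.816 with mutant Kdm5b. The higher windows numbered 2 with centring, 2 at equal reads and 1 with wild-type numbers 1 to 13. The largest difference was in the window of Dlk1 and Meg3, the reciprocally imprinted pair on chromosome 12, at 0.45 (chr12:109000001-110000000, adjusted p = 0.0092). In the 100 kb bin of H19, an RNA gene silenced on the paternal allele, mean OE was 1.66 with wild-type and 0.445 with mutant Kdm5b, a log2 difference of 1.23 that did not pass (adjusted p = 0.0882).

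Long neuronal genes, single genes of large genomic span that often fill a LAD, were lower or did not pass. Of 26 windows 9 were lower and 17 did not pass, with a median of -0.32, and mean OE over the bins was 1.01 with wild-type and 1.32 with mutant Kdm5b. The lower windows numbered 14 with centring, 3 at equal reads and 4 with wild-type numbers 1 to 13. The leading window was that of Fgf14, an intracellular regulator of sodium channels, at -0.55 (adjusted p = 0.00435). In the window of Lrp1b, a lipoprotein receptor relative, wild-type pronuclei had 0.462 in the lowest, 0.823 in the median and 1.28 in the highest and mutants had 1.34, 1.58, 1.71, 0.981, 1.55 and 1.28, a log2 difference of -0.51 (adjusted p = 0.00423). In that of Cntnap2, a neurexin relative, the difference was -0.44 (adjusted p = 0.019).

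Olfactory receptor genes split by the scale on which they were read. Of 338 bins with a receptor gene 270 were LAD bins, and mean OE over them was 0.933 ± 0.095 with wild-type and 1.24 ± 0.135 with mutant Kdm5b, with a median log2 difference of -0.29 and 103 bins above 0. Of 81 windows with a receptor 16 were lower and 8 higher, with a median of 0.02 that turned to -0.08 with centring. Centring gave 20 lower and 2 higher, and wild-type numbers 1 to 13 gave 7 lower and 2 higher. In the window of Olfr1145 wild-type pronuclei had 0.626 in the lowest, 0.961 in the median and 1.53 in the highest and mutants had 2.12, 1.72, 1.92, 0.913, 1.79 and 1.58, a log2 difference of -0.52 (adjusted p = 0.00565).

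Other clustered families did not share one direction. Of 30 windows of Vmn2r pheromone receptors 2 were higher and 3 lower, the largest being that of Vmn2r75 at -0.59, and of 26 windows of Vmn1r receptors 4 were higher and 22 did not pass, with Vmn1r2 at 0.45. Of 15 windows of cytochrome P450 families 2 and 3, enzymes of drug and steroid oxidation, 2 were higher and 1 lower, that of Cyp2j13 at -0.48. Of 8 defensin windows 1 was higher and 1 lower, and of 4 prolactin family windows 2 were higher, with Prl2c3 at 0.41, and 1 lower. The member bins of the prolactin family went the other way, with a mean OE of 0.958 with wild-type and 1.24 with mutant Kdm5b. Of these 14 bins 4 were above 0, and with wild-type numbers 1 to 13, 0 prolactin windows passed. Of 10 windows of Pramel and Oog genes 1 was higher and 1 lower, that of Pramel7 at -0.52. The median of the Vmn2r windows and of the defensin windows turned below 0 with centring, at -0.08 and -0.03.

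Some groups had no window past the threshold in limma. They were the Hox clusters (0 of 5 windows, 1 at an unadjusted p under 0.05), the canonical histones (0 of 4, 1 unadjusted) and the keratins (0 of 4, 1 unadjusted). Their largest differences were 0.27 in the window that holds both Hoxc13 and Krt8 (adjusted p = 0.0888) and 0.32 in that of the histone gene H2bc13 (adjusted p = 0.0601). These genes lie outside LADs for the most part, and a p above the threshold does not show that they were at the same level.

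**Figure D5:**
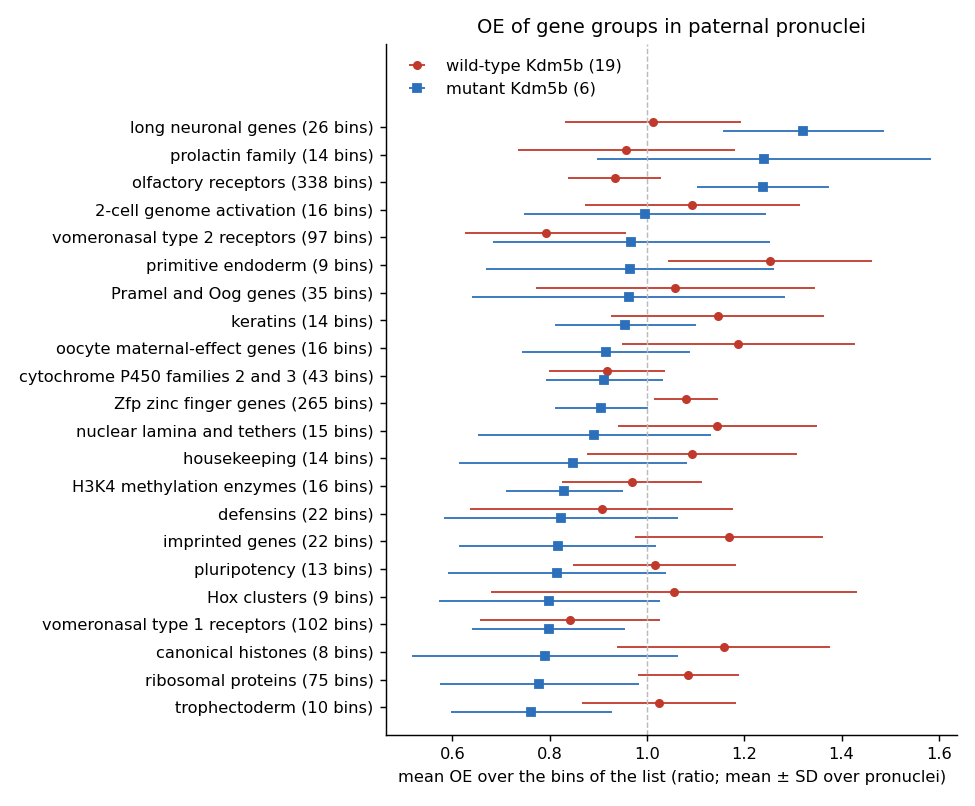
Mean OE over the bins of each gene group (x axis, mean and SD over pronuclei) with wild-type and mutant Kdm5b, ordered by the mutant value, with the number of bins beside each group. Ribosomal protein genes stand at 1.09 with wild-type and 0.779 with mutant Kdm5b, and long neuronal genes at 1.01 with wild-type and 1.32 with mutant Kdm5b.

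Single marker genes gave the same range of outcomes. The windows of Zp3, an egg coat protein (0.37, adjusted p = 0.0265), of Actb, cytoplasmic actin (0.35, adjusted p = 0.0334), and of Nanog, a pluripotency factor (0.32, adjusted p = 0.0393), were higher with wild-type Kdm5b. None of these 3 passed with centring or with wild-type numbers 1 to 13. Those of Lrp1b, Olfr1145 and Cntnap2 were lower, and of these Cntnap2 did not pass with wild-type numbers 1 to 13 (adjusted p = 0.106). In the Nanog window wild-type pronuclei had 0.745 in the lowest, 0.993 in the median and 1.64 in the highest, and mutants had 0.516, 0.876, 0.517, 0.652, 0.750 and 1.19, so that 1 mutant lay above the wild-type median.

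The other 16 marker windows did not pass. Beside that of Kdm5b, the largest differences among them were in the windows of Pcdh9 (-0.33, adjusted p = 0.0507), the 2-cell gene Zscan4c (0.33, adjusted p = 0.104), the trophectoderm factor Cdx2 (0.30, adjusted p = 0.0998), the oocyte growth factor Gdf9 (0.26, adjusted p = 0.069), the pluripotency factors Sox2 (0.22, adjusted p = 0.19) and Pou5f1 (0.20, adjusted p = 0.231), and the glycolytic enzyme Gapdh (0.18, adjusted p = 0.223). The windows of H19 (0.17), Hoxa9 (0.14), Hoxd13 (0.08), Krt5 (0.08), Gata6 (0.06), Alb (0.05), Cftr (-0.08) and Lmnb1, the gene of lamin B1 itself (-0.11), lay nearer to 0.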

How the data were processed

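Single-cell DamID reads were trimmed with cutadapt and aligned with BWA 0.7.12 to mm10, per the submitters' processing notes. The authors deposited one ratio of observed to expected reads per 100 kb autosomal bin and cell; no label or header says how the expectation was computed. Of 24639 bins, 24022 had a value. In 23954 of them the ratios gave whole reads for 99.96% to 100.0% of non-zero values (tolerance 0.02 reads), so the depths given are estimates. PCR reads are not independent molecules.

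The members and gene lists were chosen with earlier results of these data known. Group values were compared by two-sided permutation tests, exact for 19 against 6 pronuclei, with Benjamini-Hochberg adjustment within each family. Bins with a mean ratio of at least 0.2, windows of 1 Mb with at least 5 valued bins, and LADs or gaps of at least 500 kb were tested with limma 3.58.1 (R 4.3.3, moderated test with trend) on log2(ratio + 0.5), with adjusted p under 0.05 as a call. A bin belonged to a LAD list that covered at least 50% of it. Named regions were the 8 highest and 8 lowest called windows with a protein-coding gene, the 4 highest gaps and 4 lowest LADs, the marker genes, and the window of largest difference in each list, a few of which are not reported here; no 100 kb bin was called. Alternatives were pseudocounts of 0.25 and 1, centring, no filter, thinning to 41513 reads, depth as covariate, other LAD lists, a replicate block and leaving out pronuclei. Python 3.11.15, numpy 2.4.6 and pandas 2.3.3 were used, and the fits were tested on simulated data.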

Additional observations from a re-analysis of the deposited data

How the results depend on the processing

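The LAD contrast kept its direction and its call under all alternatives run. With the ICM list alone it was -0.45 and with the TE list alone -0.54, and without single pronuclei it ran from -0.72 to -0.55. With wild-type numbers 1 to 13 it was -0.51 and with 14 to 19 -0.89, both added after seeing the data. The 9 measures per pronucleus kept their calls under all 4 alternatives run for each.

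Counts of calls moved more. Bins called went from 0 to 4 with a pseudocount of 0.25, to 6 with 1, to 52 with centring, and ran from 0 to 19 without single mutants. Windows called went from 768 to 422 at equal reads of 41513 per pronucleus, and to 0 with a spread shared with the maternal groups. They went to 198 with wild-type numbers 1 to 13 and to 802 with numbers 14 to 19. Without single mutants they ran from 467 to 934, with 467 without number 1, 483 without number 2 and 467 without number 3. Domains called went from 351 to 227 with centring, to 136 with wild-type numbers 1 to 13 and to 357 with numbers 14 to 19. They ran from 257 to 384 without single mutants. The cause of each shift was not tested.

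Replicate numbers 1 to 6 occur in both groups. Deviations of same-numbered pronuclei correlated at -0.13 to 0.09, and 1 of 6 correlated best with its own number. With only 6 numbers and low r between single pronuclei, this check cannot decide whether the numbers pair the samples. With the replicate block the contrast was -0.54 (sign-flip test, p = 0.03125, the smallest that 6 pairs allow), 0 windows passed (459 unadjusted) and 0 domains passed (185 unadjusted). The same 12 pronuclei without the block gave 0 windows (484 unadjusted) and 3 domains. Shallow pronuclei limit what single bins can show: up to 31.1% of bins held no read.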
